A study of Homo sapiens with 6 samples.

Results

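The Notch genes described here are 10 of the 61533 gene rows of an RNA-seq count table, found by matching each row's Ensembl identifier to the symbols NOTCH1, NOTCH2, NOTCH3, JAG1, JAG2, DLL1, LFNG, HES1, HEY1 and HEYL. They run along the pathway from ligand to target. They were picked by symbol, with earlier results of these data known. The cells were MDA-MB-231, a human cell line derived from triple-negative breast cancer, in 3 libraries with shKDM2B, a short hairpin RNA against KDM2B, and 3 libraries with an empty vector, whose genotype is labelled wild type. Both groups were grown in the same serum-containing DMEM with nonessential amino acids and glutamine, and libraries were made from total RNA after removal of ribosomal RNA. The study, by its title, concerns KDM2B in amino acid metabolism together with MYC and ATF4. One line was used, the knockdown columns carry a single hairpin code, and the control is a vector with no hairpin, so loss of KDM2B and any other action of that hairpin cannot be told apart. The labels do not say whether the knockdown cells were a pool or a clone.

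Notch is a receptor that is cut to work. A ligand of the Jagged or Delta family on one cell binds a Notch receptor on its neighbour, which lets an ADAM protease and then gamma-secretase cut the receptor and free its intracellular domain. That domain enters the nucleus, joins the DNA-binding protein RBPJ and a Mastermind coactivator, and switches on genes such as those of the HES and HEY repressors. Fringe enzymes such as LFNG add a sugar to the receptor's extracellular domain and shift its preference between Delta and Jagged ligands. In breast cancer the pathway is best known for JAG1 and NOTCH1 in triple-negative tumours. KDM2B, the gene targeted here, encodes a protein that binds unmethylated CG dinucleotides and brings a Polycomb complex to CpG islands.

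Promoter windows for 8 of the 10 genes were taken from RefSeq (GRCh38.p14), each from 250 bases before to 50 bases after the transcript start. The RBPJ core motif TGGGAA was searched on both strands and lies in the windows of 3 of them, HES1, HEYL and LFNG, while 24.0% of the 35116 windows of all genes hold it. The 3 windows are shown because they carry the DNA word that RBPJ reads, in 2 genes whose counts rose and in 1 whose counts did not pass the test. Capitals mark the core, written as TTCCCA where it lies on the other strand.
HES1, chr3:194135898-194136197, plus strand: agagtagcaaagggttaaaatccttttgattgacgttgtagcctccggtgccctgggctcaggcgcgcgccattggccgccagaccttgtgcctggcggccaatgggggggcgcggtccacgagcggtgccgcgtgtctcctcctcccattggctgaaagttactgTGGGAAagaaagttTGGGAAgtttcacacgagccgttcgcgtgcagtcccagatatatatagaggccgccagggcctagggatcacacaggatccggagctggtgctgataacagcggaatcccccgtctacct
HEYL, chr1:39639594-39639893, minus strand: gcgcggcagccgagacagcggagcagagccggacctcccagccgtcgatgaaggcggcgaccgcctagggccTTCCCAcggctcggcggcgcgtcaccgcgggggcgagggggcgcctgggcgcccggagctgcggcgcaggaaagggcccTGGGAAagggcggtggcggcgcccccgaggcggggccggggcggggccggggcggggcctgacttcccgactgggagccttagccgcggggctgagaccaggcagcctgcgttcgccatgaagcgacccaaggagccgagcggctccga
LFNG, chr7:2512279-2512578, plus strand: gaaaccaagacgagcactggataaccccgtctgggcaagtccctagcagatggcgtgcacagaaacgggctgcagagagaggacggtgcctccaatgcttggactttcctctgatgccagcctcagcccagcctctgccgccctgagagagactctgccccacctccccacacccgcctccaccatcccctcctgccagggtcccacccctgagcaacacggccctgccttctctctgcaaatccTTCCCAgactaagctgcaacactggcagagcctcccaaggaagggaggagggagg

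The HES1 window holds 2 cores on the gene's own strand, at positions -84 to -79 and -70 to -65 from the start. The HEYL window also holds 2, at -178 to -173 on the opposite strand and at -99 to -94 on its own. The LFNG window shown has 1 core on the opposite strand, from -5 to 1, where 1 is the first transcribed base, and a second RefSeq start of LFNG has 1 at -248 to -243. Of all windows, 3.80% hold 2 or more. CG dinucleotides numbered 46 in the JAG2 window, 42 in NOTCH1, 41 in HEYL, 37 in NOTCH3, 33 in NOTCH2, 24 in JAG1, 21 in HES1, and 8 and 6 in the 2 LFNG windows, against a median of 14 over all windows (quartiles 4 and 28). CG-rich starts therefore occurred among genes that rose, among genes that fell and in HEYL. These matches describe the DNA letters and were not measured as binding.

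Library totals ran from 10437732 to 15737951 counts in shKDM2B and from 10190149 to 13635565 in empty vector, so that 3 counts, the limit that a count of 0 allows, stand for 0.191 to 0.294 CPM (read counts scaled to library size). KDM2B itself fell in all 3 knockdown libraries, to 14.9, 14.5 and 14.6 CPM in shKDM2B, against 57.3, 68.0 and 65.3 CPM in empty vector (log2 fold change -2.12, SE 0.08, adjusted p 8.77e-11). Mitochondrially encoded genes took 0.196 to 0.476% of counts in shKDM2B and 0.0767 to 0.151% in empty vector, and the nuclear RNA MALAT1 took 0.246 to 0.311% in shKDM2B and 0.0958 to 0.107% in empty vector; the part of these shifts in the results below was not tested. The labelled cell type was checked by its markers: CD44, AXL and VIM averaged 1258, 2551 and 406 CPM in shKDM2B and 1094, 2267 and 1299 CPM in empty vector, while the hormone receptors ESR1 and PGR stayed at or below 0.290 CPM in every library. ERBB2, listed with these receptors, averaged 62.5 CPM in shKDM2B and 63.7 CPM in empty vector and did not pass the test. The mesenchymal list held 6 markers, all tested, of which 3 were called higher and 2 lower, against 30.5% and 30.4% of all tested genes. VIM fell 3.20-fold and CAV1 1.27-fold, while CD44, AXL and FN1 were called higher and ZEB1 did not pass the test. Luminal epithelial markers, a list of 7, summed to 759 to 796 CPM in shKDM2B and 508 to 666 CPM in empty vector. Of the 6 tested, 3 were called higher and 0 lower, against 30.5% and 30.4% of all tested genes. Leukocyte markers, a list of 5, summed to at most 1.04 CPM in shKDM2B and at most 0.381 CPM in empty vector, with CD3E and LYZ at 0 in all 6 libraries. The part of the luminal shift in the results was not tested.

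Of the 10 genes, 9 had enough counts to be tested (at least 0.912 CPM in 3 or more libraries), and 6 of them rose, 2 fell and 1 did not pass the test in shKDM2B. The response of these cells was broad: edgeR's quasi-likelihood test called 60.9% of all 14071 tested genes at an adjusted p under 0.05, 30.5% higher and 30.4% lower. The 8 calls among the 9 genes are to be read against the share called in either direction, and the 6 increases and 2 decreases each against the share called in theirs. Of the 6 increases, 5 were at least 2-fold, a size at which 7.14% of tested genes were called higher and 4.85% lower. NOTCH3 is among these 5, and only 2 of its control libraries reached the low-count filter level. The groups did not overlap for the 6 genes that rose and the 2 that fell. Among all tested genes the groups did not overlap for 65.5%, with all shKDM2B libraries higher for 33% and all of them lower for 32.5%. On the log2 scale, the median change was 1.02 for the 9 genes and -0.01 for all tested genes. In bulk RNA, fewer cells expressing a gene and less RNA of it per cell cannot be told apart.

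**Figure D1:**
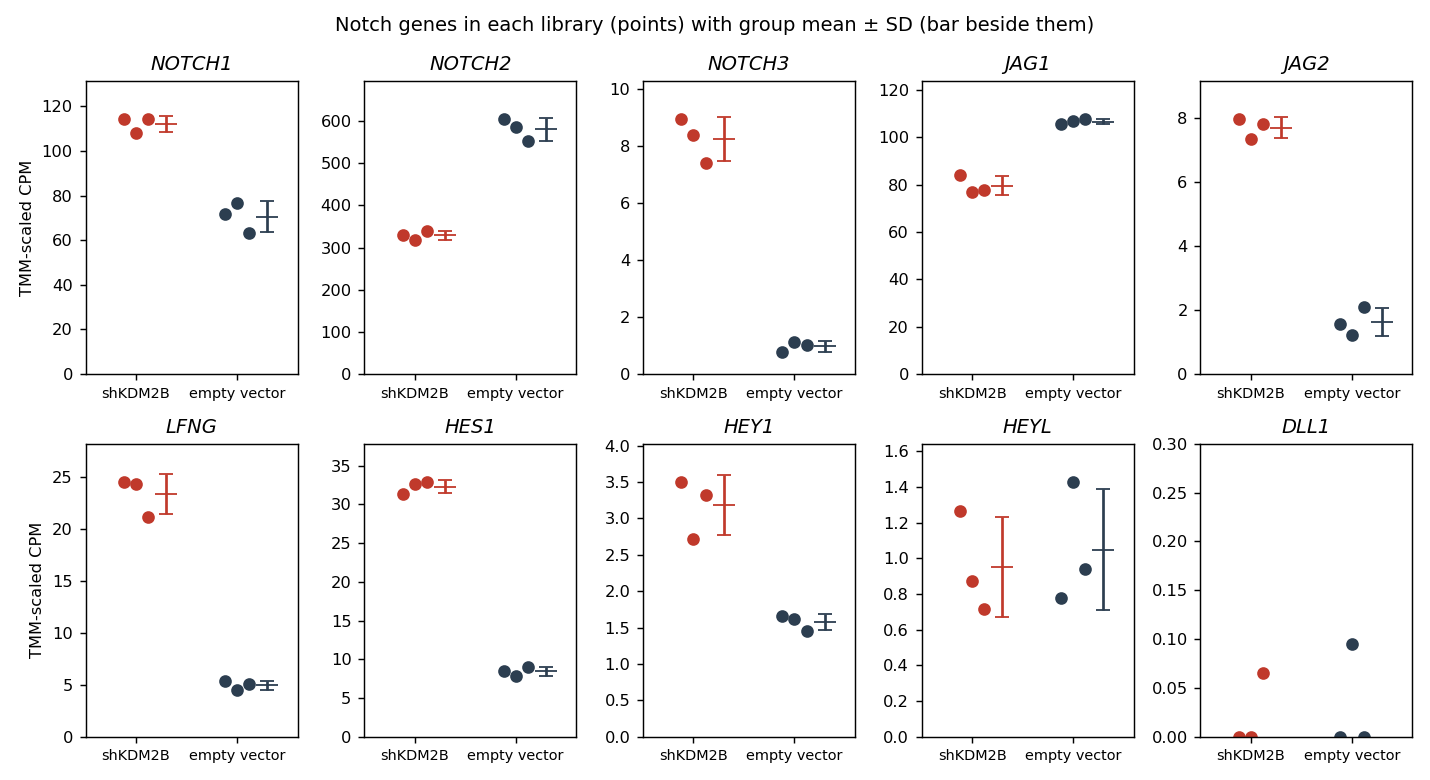
Each panel plots 1 gene in TMM-scaled CPM on an axis from 0, with the 3 shKDM2B libraries at the left, the 3 empty vector libraries at the right, and the group mean ± SD as a bar beside the points (none for DLL1, with at most 1 read a library). NOTCH1, NOTCH3, JAG2, LFNG, HES1 and HEY1 are higher in all shKDM2B libraries, NOTCH2 and JAG1 are lower, and the HEYL groups overlap.

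Among the ligands, the rarer Jagged gene rose and the common one fell. JAG2 (ENSG00000184916.9, chromosome 14 from 105140981 to 105168824, minus strand, GENCODE 29 on GRCh38) had 7.97, 7.36 and 7.81 CPM in shKDM2B replicates 1, 2 and 3, against 1.56, 1.24 and 2.10 CPM in empty vector. The lowest knockdown library thus lay well above the highest control library, on raw counts of 82 to 120 in shKDM2B and 13 to 29 in empty vector. The fold was 4.598 (log2 fold change 2.20, SE 0.19, adjusted p 2.40e-07). JAG2 shares 469 exonic bases with the same-strand transcript AL512356.1, so reads there cannot be assigned with certainty.

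JAG1 (ENSG00000101384.12, chromosome 20 from 10637684 to 10673999, minus strand), the ligand altered in Alagille syndrome, had 84.1, 76.9 and 77.6 CPM in shKDM2B, against 105.5, 107.0 and 107.7 CPM in empty vector. All knockdown libraries were below all controls, and the controls differed little from each other. The decrease was 1.34-fold (log2 fold change -0.43, SE 0.05, adjusted p 8.74e-06), and 79 exonic bases overlap the antisense gene AL050403.2. Counted per kilobase of annotated exon, JAG2 made up 12.4 ± 0.353% of the summed JAG1 and JAG2 level in shKDM2B and 2.17 ± 0.554% in empty vector (SD, n = 3 each). JAG1 therefore remained the main Jagged transcript in each of the 6 libraries.

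DLL1 (ENSG00000198719.9, chromosome 6 from 170282206 to 170306565, minus strand), a Delta ligand, had 0, 0 and 1 reads in shKDM2B and 0, 1 and 0 reads in empty vector. Both groups are under the limit of 3 counts, so no fold is given and DLL1 was not tested. Of the other Delta-type ligands, DLL4, best known from sprouting blood vessels, rose to 2.24, 1.84 and 1.95 CPM in shKDM2B, against 0.195, 0.571 and 0.362 CPM in empty vector (log2 fold change 2.38, SE 0.36, adjusted p 5.85e-05). It passed the low-count filter only through its knockdown libraries and had 2 to 6 reads in each control library, so its size is uncertain. DLL3 and DLK1 had at most 3 reads in any library and MFAP5 had 0.

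DLL4 and NOTCH4 are also genes of blood vessel cells, and vessel markers were measured beside them. The 7 markers summed to 39.1 to 41.9 CPM in shKDM2B and 24.1 to 27.8 CPM in empty vector, nearly all from KDR and EGFL7. Of the 3 tested, 1 was called higher and 1 lower, against 30.5% and 30.4% of all tested genes. KDR, a VEGF receptor, rose 2.96-fold, the same direction as DLL4, with 25.7 ± 0.427 CPM in shKDM2B and 8.76 ± 1.27 CPM in empty vector (SD, n = 3 each; adjusted p 2.06e-08). The defining markers PECAM1, CDH5 and VWF were at most 0.778 CPM in any library, and TIE1 fell to 1.07 CPM in shKDM2B, against 2.27 CPM in empty vector on average (adjusted p 0.00297). The part of such cells in the DLL4 increase was not tested. NOTCH4 was at 1.11 ± 0.216 CPM in shKDM2B and 0.828 ± 0.143 CPM in empty vector (SD, n = 3 each; adjusted p 0.283).

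DNER, a Delta- and Notch-like surface protein known from neurons, had 36.0, 38.2 and 34.97 CPM in shKDM2B, against 13.7, 19.8 and 17.8 CPM in empty vector, a 2.12-fold increase (log2 fold change 1.08, SE 0.11, adjusted p 9.34e-07). DLK2 (log2 fold change 0.15, adjusted p 0.353) and MFAP2 (0.21, adjusted p 0.531) did not pass the test. DLK2 reached 0.29 on the log2 scale with an adjusted p of 0.0414 when empty vector replicate 2 was left out. It was not called under the 13 other alternative settings, where adjusted p reached 0.762. Among these 8 other receptors and ligands, 2 of the 5 tested rose and 0 fell, against 30.5% and 30.4% of all tested genes. The list's median was 0.43 on the log2 scale. The 2 that rose are DNER and DLL4, and DLL4 passed the filter only through its knockdown libraries.

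The receptors moved in opposite directions, the main one down and the 2 others up. NOTCH2 (ENSG00000134250.21, chromosome 1 from 119911553 to 120069626, minus strand) was the most abundant receptor per length of exon and had 329.2, 317.4 and 340.1 CPM in shKDM2B, against 604.6, 586.1 and 551.9 CPM in empty vector. Every knockdown library was far below every control. The decrease was 1.77-fold (log2 fold change -0.82, SE 0.05, adjusted p 3.96e-09).

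NOTCH2 has human-specific partial copies, the NOTCH2NL genes, which can share its reads. Of these, only NOTCH2NLC was tested, with 8.70 ± 1.03 CPM in shKDM2B and 10.9 ± 0.278 CPM in empty vector (SD, n = 3 each; log2 fold change -0.34, SE 0.12, adjusted p 0.0262). That call was lost with DESeq2 (adjusted p 0.124), without shKDM2B replicate 3 (0.146) and without empty vector replicate 3 (0.0555). NOTCH2NLA, NOTCH2NLB and NOTCH2NLR were below 1 CPM in every library.

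NOTCH1 (ENSG00000148400.13, chromosome 9 from 136494433 to 136545786, minus strand), the receptor most studied in cancer, had 114.1, 108.1 and 114.2 CPM in shKDM2B, against 72.0, 76.7 and 63.1 CPM in empty vector. The knockdown libraries lay close together and all above the controls. The increase was 1.59-fold (log2 fold change 0.67, SE 0.07, adjusted p 8.94e-07).

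NOTCH3 (ENSG00000074181.9, chromosome 19 from 15159038 to 15200981, minus strand), the receptor typical of vascular smooth muscle and pericytes and itself a known Notch target, showed the largest fold of the 9 tested genes. It had 8.94, 8.41 and 7.42 CPM in shKDM2B, against 0.778, 1.14 and 1.01 CPM in empty vector. That is 92 to 114 reads in the knockdown libraries and 8 to 14 reads in the controls. The fold was 8.27 (log2 fold change 3.05, SE 0.21, adjusted p 1.61e-08), with its size limited by the few control reads. All 3 knockdown libraries but only 2 control libraries reached the low-count filter level, so NOTCH3 needed its higher group to be tested.

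The 7 fibroblast and pericyte markers summed to 75.4 to 83.2 CPM in shKDM2B and 15.5 to 15.7 CPM in empty vector. COL1A1 made up most of the shKDM2B sum. Of the 3 tested, 2 were called higher and 0 lower, against 30.5% and 30.4% of all tested genes. The 2 called higher were COL1A1 (66.4 CPM in shKDM2B and 5.78 CPM in empty vector on average) and PDGFRB (5.48 CPM in shKDM2B and 1.21 CPM in empty vector). Of the same list, COL1A2, COL3A1, DCN and LUM stayed at or below 0.350 CPM in every library, and the pericyte marker RGS5 was at 6.48 ± 0.664 CPM in shKDM2B and 8.43 ± 1.80 CPM in empty vector (SD, n = 3 each; adjusted p 0.0557). The part of these markers' change in the NOTCH3 result was not tested.

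Per kilobase of annotated exon, the 3 receptors together came to 30.2 to 32.0 CPM per kb in shKDM2B and 39.0 to 43.0 CPM per kb in empty vector, so the summed level was lower in every knockdown library. NOTCH2 made up 62.6 ± 0.534% of that sum in shKDM2B and 83.4 ± 0.965% in empty vector (SD, n = 3 each). NOTCH1 made up 34.6 ± 0.267% in shKDM2B and 16.4 ± 0.947% in empty vector. NOTCH3 made up 2.82 ± 0.304% in shKDM2B and 0.252 ± 0.0517% in empty vector. The receptor pool thus held a larger NOTCH1 and NOTCH3 share and a smaller NOTCH2 share in each knockdown library than in any control, as the plot of transcript make-up shows. With the longest transcript as length, the NOTCH2 share was 68.9% in shKDM2B and 86.9% in empty vector.

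**Figure D2:**
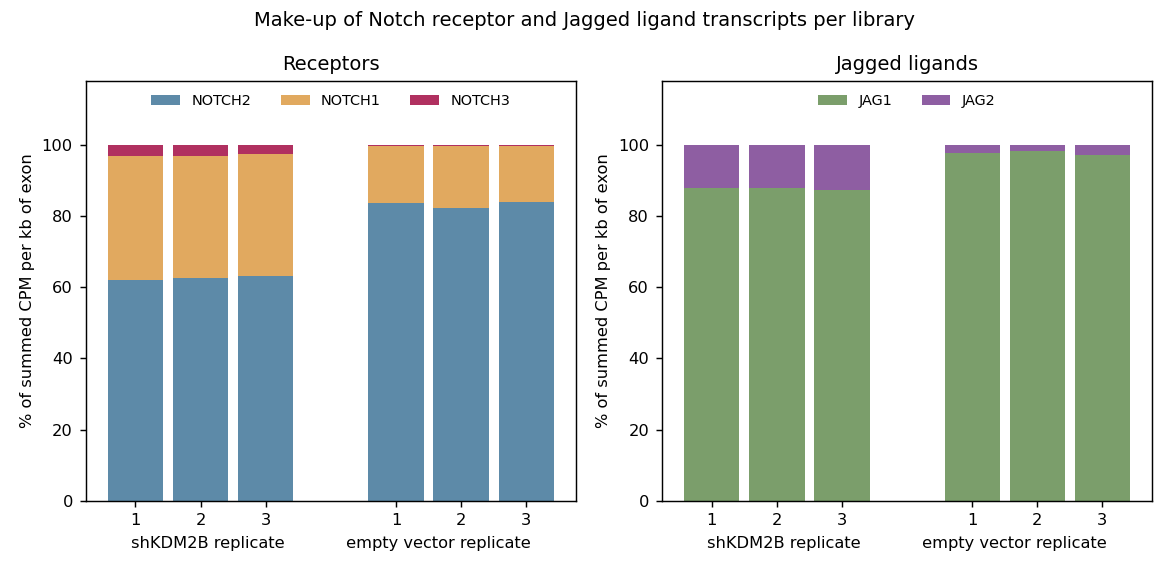
Stacked bars give, for each library (shKDM2B replicates at the left, empty vector at the right), the percent of the summed CPM per kb of exon that came from each receptor (left panel) and each Jagged ligand (right panel). NOTCH1 takes 34.6% of the receptor sum in shKDM2B and 16.4% in empty vector on average, and JAG2 takes 12.4% of the Jagged sum in shKDM2B and 2.17% in empty vector.

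LFNG (ENSG00000106003.14, chromosome 7 from 2512529 to 2529177, plus strand), the Lunatic Fringe glycosyltransferase, acts on Notch receptors in the Golgi and rose in shKDM2B. It had 24.5, 24.3 and 21.1 CPM in shKDM2B, against 5.35, 4.48 and 5.07 CPM in empty vector. Every knockdown library was far above every control. The fold was 4.66 (log2 fold change 2.22, SE 0.12, adjusted p 1.72e-09).

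RFNG, Radical Fringe, was chosen after its values were seen and had 17.3 ± 1.27 CPM in shKDM2B and 19.5 ± 0.615 CPM in empty vector (SD, n = 3 each; log2 fold change -0.18, SE 0.09, adjusted p 0.110). MFNG, Manic Fringe, had at most 3 reads in any library. Of the 3 fringe genes, LFNG was therefore the 1 called higher; its difference from RFNG was not tested. Among the 7 tested genes of the glycosylation list, 4 rose and 1 fell, against 30.5% and 30.4% of all tested genes. The list's median was 0.21 on the log2 scale. Among the 4 that rose is B3GLCT, a glucosyltransferase of thrombospondin-type repeats and not of the EGF repeats of Notch. Without B3GLCT, 3 of 6 rose and 1 fell, at a median of 0.12. B3GLCT rose 1.89-fold (28.1 ± 1.16 CPM in shKDM2B and 14.8 ± 2.06 CPM in empty vector; SD, n = 3 each). The O-fucosyltransferase POFUT1, whose fucose is what fringe extends, rose 1.21-fold, and EOGT and POGLUT3 rose 1.18-fold and 1.16-fold. POGLUT2, chosen after its values were seen, fell 1.68-fold.

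HES1 (ENSG00000114315.4, chromosome 3 from 194136145 to 194138732, plus strand), the basic helix-loop-helix repressor most often used as a readout of Notch, rose in all 3 knockdown libraries. It had 31.3, 32.6 and 32.9 CPM in shKDM2B, against 8.46, 7.81 and 9.05 CPM in empty vector. Neither group varied much, and the gap between them was several times the spread within them. The fold was 3.80 (log2 fold change 1.93, SE 0.09, adjusted p 6.27e-10). HES1 is also driven by other pathways, so its level alone does not measure Notch activity.

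HEY1 (ENSG00000164683.18, chromosome 8 from 79764010 to 79767863, minus strand), a related repressor with a role in vessels and heart, was far lower than HES1 per length of exon. It had 3.50, 2.71 and 3.32 CPM in shKDM2B, against 1.65, 1.62 and 1.45 CPM in empty vector, on 31 to 51 reads a library in shKDM2B and 17 to 20 in empty vector. The groups did not overlap, and the fold was 2.03 (log2 fold change 1.02, SE 0.22, adjusted p 0.00124).

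HEYL (ENSG00000163909.8, chromosome 1 from 39624153 to 39639945, minus strand), a further HEY repressor, had 1.26, 0.876 and 0.716 CPM in shKDM2B, against 0.778, 1.43 and 0.941 CPM in empty vector. The groups overlapped, on 8 to 15 reads a library, and no change was detectable at this depth (log2 fold change -0.17, SE 0.36, adjusted p 0.696). The sign turned to 0.03 without shKDM2B replicate 3 and to 0.075 without empty vector replicate 2. Whether the response of HEYL differed from that of HES1 or HEY1 was not tested.

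**Figure D3:**
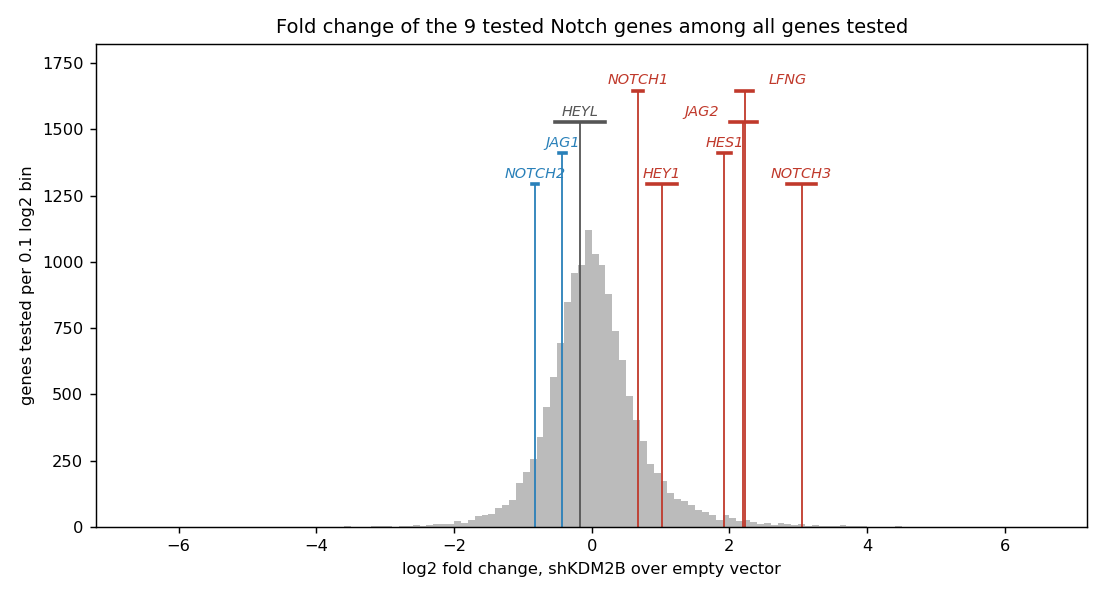
The grey histogram counts all 14071 tested genes by log2 fold change (shKDM2B over empty vector, bins of 0.1); coloured lines mark the 9 tested Notch genes, with a horizontal bar of ± 1 SE, red for higher, blue for lower and grey for not past the test. NOTCH3, LFNG, JAG2 and HES1 lie in the thin right tail, with log2 fold changes from 1.93 to 3.05, while NOTCH2 and JAG1 lie left of 0.

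Other HES and HEY relatives and genes known to be induced by Notch in some tissue formed a list of 16. Of these, 12 were tested, 6 rose and 1 fell (median 0.80 on the log2 scale), against 30.5% and 30.4% of all tested genes. NRARP, a feedback inhibitor that Notch induces in many tissues, had 2.92, 3.15 and 4.43 CPM in shKDM2B, against 2.14, 1.52 and 1.45 CPM in empty vector (2.12-fold, log2 fold change 1.08, SE 0.25, adjusted p 0.00175). All knockdown libraries were above all controls. BHLHE40 and BHLHE41, related repressors that also answer to hypoxia and the clock, rose 2.89-fold and 2.67-fold. IL7R, a Notch target in T cells, rose 2.54-fold. CCND1, the G1 cyclin, rose 1.87-fold (1709 ± 37.8 CPM in shKDM2B and 912 ± 11.1 CPM in empty vector; SD, n = 3 each), while CCND3, its relative with a role in T cells, fell 1.27-fold. EPHB3, chosen after its values were seen, rose 3.34-fold on 5 to 13 reads in the control libraries. Only 1 control library reached the low-count filter level, so EPHB3 needed its 3 knockdown libraries to pass and its size is uncertain.

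The remaining HES and HEY genes had few reads. HES2, HES4, HES6 and HES7 averaged 1.36, 2.01, 3.10 and 1.44 CPM in shKDM2B and 0.849, 1.26, 2.26 and 1.03 CPM in empty vector, and none of the 4 passed the test (adjusted p from 0.0947 to 0.1505). All 4 had their highest control value in empty vector replicate 2. Leaving out that library brought HES4 to an adjusted p of 0.00802 and HES6 to 0.00413. Neither was called under the 13 other alternative settings, where adjusted p reached 0.292 for HES4 and 0.460 for HES6. HES5 and HEY2 were not tested, with at most 1 read and at most 15 reads in any library.

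Among the proteases that cut Notch, FURIN and both ADAM genes rose at least 2-fold. Of 9 genes, all tested, 6 rose and 0 fell (median 0.50 on the log2 scale), against 30.5% and 30.4% of all tested genes. FURIN, which cleaves the receptor during its maturation, had 258.6, 262.2 and 273.6 CPM in shKDM2B, against 83.4, 84.7 and 87.5 CPM in empty vector (3.11-fold, log2 fold change 1.63, SE 0.05, adjusted p 8.83e-12). ADAM10 and ADAM17, which make the cut that ligand binding exposes, rose 2.08-fold and 2.20-fold, to 386.5 ± 3.27 and 154.5 ± 2.07 CPM in shKDM2B, against 185.4 ± 9.90 and 70.1 ± 2.07 CPM in empty vector (SD, n = 3 each). Both have many substrates besides Notch.

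Of gamma-secretase, which makes the final cut, the nicastrin gene NCSTN rose 1.45-fold and PSENEN 1.41-fold. PSEN2, a catalytic subunit (log2 fold change -0.25, adjusted p 0.280), and the scaffold gene APH1A (0.04, adjusted p 0.459) were not called; both were picked after looking at their values.

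The nuclear partners of Notch were split. In the activator list of 9 genes, 5 rose and 4 fell, against 30.5% and 30.4% of all tested genes. The list's median was 0.58 on the log2 scale. The Mastermind genes MAML2 and MAML3 rose 1.75-fold and 1.82-fold, and the acetyltransferases KAT2B, CREBBP and EP300 rose 1.77-fold, 1.499-fold and 1.49-fold. MAML1, the founding Mastermind gene, and RBPJ, the DNA-binding subunit, both chosen after their values were seen, fell 1.49-fold and 1.21-fold. RBPJ had 202.9, 186.4 and 204.4 CPM in shKDM2B, against 257.1, 203.6 and 258.6 CPM in empty vector, groups that overlapped, and its adjusted p of 0.0109 became 0.0507 without shKDM2B replicate 2.

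Of the 17 genes of the RBPJ corepressor list, 16 were tested, 7 rose and 4 fell, against 30.5% and 30.4% of all tested genes. The list's median was 0.10 on the log2 scale. TLE1, a Groucho protein that HES factors recruit, rose 1.52-fold, and HDAC1 and the demethylase KDM5A rose 1.49-fold and 1.40-fold. The list also holds SHARPIN, a subunit of a linear ubiquitin ligase and not a known RBPJ corepressor, which rose 1.49-fold. Without SHARPIN, 6 of 15 tested genes rose and 4 fell, at a median of 0.07 on the log2 scale. TLE2, chosen after its values were seen, rose 5.05-fold and passed the low-count filter only through its knockdown libraries, with 3 to 6 reads in the controls.

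Genes of ligand and receptor endocytosis and ubiquitination were called higher for 9 of 16 tested and lower for 2. The shares of all tested genes were 30.5% and 30.4%, and the list's median was 0.28 on the log2 scale. NEURL1B, a ubiquitin ligase of the Neuralized family that acts on ligands, had 22.1, 22.9 and 24.4 CPM in shKDM2B, against 9.43, 11.2 and 9.99 CPM in empty vector, a 2.27-fold increase. The epsins EPN2 and EPN1, which help pull ligand into the cell, moved in opposite directions: EPN2 rose 1.69-fold and EPN1 fell 1.53-fold. ITCH and DTX2, ubiquitin ligases of receptor trafficking, rose 1.45-fold and 1.46-fold. NEURL1 and DTX4, chosen after their values were seen, changed by log2 fold changes of 2.25 and -2.23, with at most 4 reads in an empty vector library for NEURL1 and at most 12 in a shKDM2B library for DTX4, and each passed the filter only through its higher group.

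**Figure D4:**
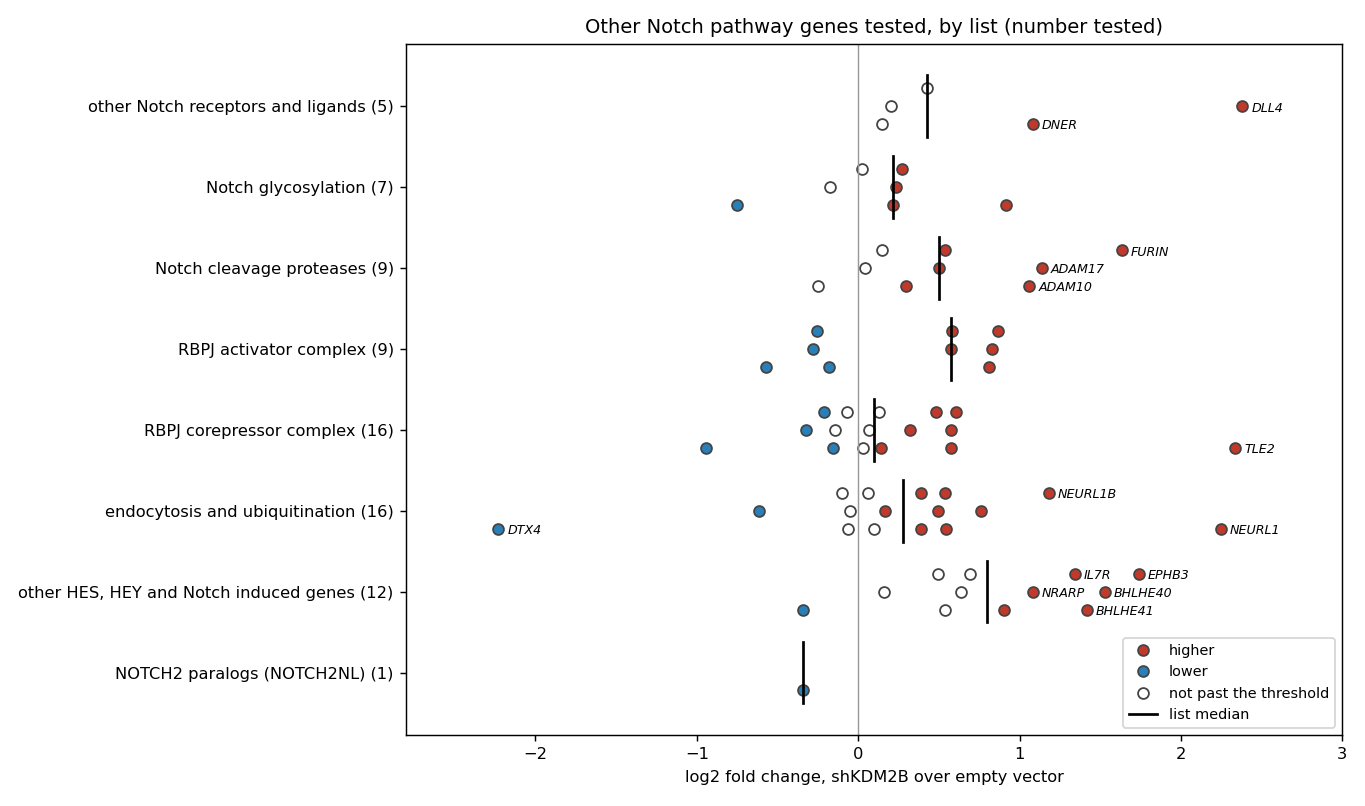
Every tested gene of the 8 other pathway lists is a point at its log2 fold change (shKDM2B over empty vector), red for higher, blue for lower and white for not past the test, with a black line at each list's median and the vertical grey line at 0. FURIN, ADAM17 and ADAM10 stand at the right of the protease list, and the RBPJ activator list has points on both sides of 0.

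Over all 8 lists, 39 of 75 tested genes were called higher and 13 lower, 14 were not tested, and the median was 0.32 on the log2 scale, against 30.5% and 30.4% of all tested genes called higher and lower. These counts include DLL4, TLE2, NEURL1 and DTX4, which passed the low-count filter only through their higher group. EPHB3, with 1 empty vector library at the filter level, also needed its higher group to pass. Without B3GLCT and SHARPIN, 37 of 73 were called higher and 13 lower. The lists were chosen for their roles and gave a description, not a test of the pathway as a whole.

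Levels can be ranked between genes only per length. In shKDM2B the order of CPM per kb of exon was NOTCH2 (19.6), HES1 (15.6), NOTCH1 (10.8), JAG1 (8.55), LFNG (6.82), JAG2 (1.21), HEY1 (0.984), NOTCH3 (0.879) and HEYL (0.260). In empty vector it was NOTCH2 (34.6), JAG1 (11.5), NOTCH1 (6.80), HES1 (4.09), LFNG (1.45), HEY1 (0.487), HEYL (0.287), JAG2 (0.255) and NOTCH3 (0.104). HEY1 and NOTCH3 overlapped between libraries in shKDM2B, and HEYL and JAG2 overlapped in empty vector, so these neighbours cannot be ordered. HES1 lay above NOTCH1 and JAG1 in shKDM2B and below both in empty vector. With the longest transcript as length, JAG1 stood above NOTCH1 and HEY1 above JAG2 in shKDM2B, and the order of the 9 genes in empty vector was the same.

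For LFNG, the Notch gene with the largest change among those of the 10 at a mean of 5 CPM or more, the most similar profiles were sought among 10648 tested genes at that level. MYLK, the myosin light chain kinase, differed from it by a root mean square of 0.0769 in centred log2 CPM over the 6 libraries, ST3GAL5, a ganglioside sialyltransferase, by 0.1002 and VWA1, a matrix protein, by 0.101. MYLK averaged 65.2 CPM in shKDM2B and 14.2 CPM in empty vector. The libraries share their groups, so the measure takes in the fold change itself.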

How the data were processed

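The deposited table holds raw read counts per gene, with 1 column per library. The tools in the submitters' processing notes are STAR, featureCounts, Trim Galore, limma, edgeR and DESeq2, with GRCh38; versions, roles, annotation release and strand setting are not stated there, so reads of overlapping or near-identical genes can have been split or lost. Columns were assigned by name; the knockdown columns give sh, a code and a number, and shKDM2B is the only hairpin group.

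From these counts, genes were filtered (filterByExpr, minimum count 10, minimum total 15), libraries scaled by TMM and the quasi-likelihood test of edgeR 4.0.16 (R 4.3.3, robust, two-sided) was run on shKDM2B over empty vector. P-values were adjusted by Benjamini-Hochberg across the 14071 genes tested. An adjusted p under 0.05 is a call. CPM are TMM-scaled, and each SE was derived from the test's F statistic. The floor set by a count of 0 covers counting error only. The SE and SD values also take in the spread between libraries. The script was tested on simulated data. Symbols matched 61415 of 61533 rows; loci, exon lengths and overlaps came from GENCODE 29.

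The labels call the replicates biological without naming separate cultures, so p-values measure the spread between libraries, which may be technical. No library repeated another of its group: the chi-square per degree of freedom of their counts was 2.00 to 10.0.

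The members and lists were chosen with earlier results of these data known. Named genes are the 10 members, KDM2B, up to 5 called genes of each list at a mean of at least 5 CPM by size of change, all receptor, ligand, HES, HEY and NRARP genes of the lists, and the 3 profiles most like the strongest member at that level. Alternatives were DESeq2 (1.42.0) and its size factors, upper-quartile scaling, no filter, a filter of 1 CPM in 3 libraries, limma-voom (limma 3.58.1), no robust step, a replicate block, leaving out each library and, for levels, the longest transcript as length. Counts without B3GLCT and SHARPIN, whose known roles lie outside their lists, were added after seeing the data. Results for some genes of the lists are not reported here, but they stay in the list counts.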

Additional observations from a re-analysis of the deposited data

How the results depend on the processing

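NOTCH1, NOTCH2, NOTCH3, JAG1, JAG2, HES1, HEY1 and LFNG kept their direction and call under all 14 alternatives. Their log2 fold changes ranged from 0.59 to 0.73, -0.86 to -0.79, 2.91 to 3.14, -0.46 to -0.40, 2.04 to 2.45, 1.87 to 1.98, 0.95 to 1.12 and 2.15 to 2.29, and the highest adjusted p was 0.0191, for HEY1. HEYL ran from -0.40 to 0.075 when 1 library was left out (0.03 without shKDM2B replicate 3, 0.075 without empty vector replicate 2), and it failed the filter of 1 CPM. MFAP2 turned to -0.11 without empty vector replicate 3, within a leave-one-out range up to 0.36. The count of RBPJ activator genes called lower was 4, and 2 to 4 with 1 library left out. That of NOTCH2NL copies was 1, and 0 with DESeq2 and 0 to 1 with 1 library left out. Upper-quartile scaling moved the median of all tested genes to -0.02, from -0.01.

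No test is given for DLL1, which entered only without a filter. Whether replicate numbers pair the libraries was not settled. Deviations from the group means of same-numbered libraries correlated at 0.12, -0.03 and 0.08, and numbers 1 and 3 correlated best with their own. With the replicate block, the number of genes called higher was 4249 and of genes called lower 4230, against 4288 and 4283 without it, and 6 and 2 of the Notch members as before. Over all genes, DESeq2 called 3584 higher and 3660 lower. Low read numbers limit HEYL, HEY1, DLL4 and the control level of NOTCH3.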
